A study of Mus musculus with 6 samples.

Results

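Potassium channel subunits were examined in RNA of mouse cortical cells sorted as neurons around an infarct. They were taken as every gene of the deposited table whose symbol is Kcn, further letters and a number, with a mean level of at least 1 CPM (reads per gene on a common scale, set per library) over the 6 libraries. Of 24419 gene symbols in the table, 92 had such a name and 75 of these reached 1 CPM. The 75 members were 36 pore-forming subunits of voltage-gated (Kv) channels, 12 of inward rectifiers (Kir), 9 of tandem-pore leak channels (K2P), 7 of calcium-activated channels and their relatives, and 11 auxiliary subunits. The Kv count includes 9 electrically silent subunits, which form no channel alone. The rule used the mean over both groups and not the difference between them. Just inside it stood Kcng2, Kcnmb2 and Kcna5 at means of 1.19, 1.503 and 1.71 CPM, and just outside it Kcnk6, Kcnk7 and Kcnq1 at 0.793, 0.512 and 0.452 CPM.

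Male wild-type C57BL/6N mice underwent transient occlusion of the middle cerebral artery for 60 min, and intravenous 15-HETrE or vehicle followed at 24 h, at 48 h and again at 72 h. 15-HETrE is a hydroxylated fatty acid; 600 ng was used, and each injection had a volume of 150 µL of phosphate-buffered saline. On day 4 the peri-infarct cortex was dissociated, and cells positive for Thy1 and negative for ACSA2, CD31, CD45 and O4 were sorted. These negative markers are surface antigens of astrocytes, endothelium, leukocytes and the oligodendrocyte lineage. The 15-HETrE group had 3 libraries (1, unnumbered and combined) and the vehicle group 3 (1, 2 and combined), all from animals with a stroke, so no group without a stroke enters the comparison. The sources used here give neither the ages of the animals nor how many were pooled per library. Nothing says that the libraries of a group came from separate animals, so p-values measure the spread between libraries alone, and that spread may be technical.

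Potassium channels let potassium leave the cell and so set its resting potential, end its action potentials and limit how often it fires. Pore-forming Kv, Kir and calcium-activated subunits assemble as tetramers, K2P subunits as dimers with a pair of pore domains in each chain, and auxiliary subunits change the gating or the traffic of the pores. In cortical neurons, Shaker-related channels guard the axon, Shab-related channels the soma, and KCNQ channels carry the muscarine-sensitive current, while glia and mural cells of vessels use inward rectifiers of their own.

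The libraries held 5405245 to 22558400 reads assigned to genes, with the combined library of each group the shallowest. Column names carried 3 prefixes: 15-HETrE 1, vehicle 1 and vehicle 2 share the first, 15-HETrE unnumbered has the second, and the combined pair forms the third. All 12 pan-neuronal markers were detected, at a mean of 7.33 to 7.98 in 15-HETrE and 6.51 to 7.37 in vehicle libraries on the scale of log2(CPM + 1). Markers of cells that the sort should remove were present too: oligodendrocyte markers stood at 9.37 to 10.5 in 15-HETrE and 9.39 to 9.99 in vehicle libraries, and astrocyte markers at 5.97 to 8.71 and 5.22 to 7.88. Fibroblast markers stood at 5.56, 8.07 and 3.65 in 15-HETrE 1, unnumbered and combined, and at 10.4, 10.3 and 4.28 in vehicle 1, 2 and combined. In bulk RNA of this kind, fewer cells of a type and less RNA per cell cannot be told apart.

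As a group, most subunit genes lay higher in the 15-HETrE libraries, and no single one passed the test over all genes. The summed level of the 75 members was 5426, 4628 and 5360 CPM in 15-HETrE 1, unnumbered and combined, against 3814, 3433 and 3898 CPM in vehicle 1, 2 and combined. The groups did not overlap in this sum, which averaged 5138 ± 443 CPM in 15-HETrE and 3715 ± 248 CPM in vehicle libraries (SD, n = 3 each). Of the 75 members, 59 (78.7%) had a difference above 0 and 16 below, with a median of 0.54 on the log2 scale, where 51% of all 14523 genes tested were above 0 and 49% below, and their median was 0.02. With limma, 0 members passed at an adjusted p of 0.05 in either direction, as did 0% of all genes tested, and the smallest adjusted p of a member was 0.334. At an unadjusted p under 0.05, 12 members (16.0%) were higher, against 4.27% of all genes, and 3 (4.0%) were lower, against 5.23%. On the reads recovered from these values, edgeR called 0 members and 0% of all genes. In either direction, 14 of the 75 members had an unadjusted p under 0.05 in edgeR, beside 1232 of the 14523 genes tested. Of all genes, these were 3.64% on the higher side and 4.84% on the lower. DESeq2 called 2 members higher, Kcnma1 and Kcnh3, and 0 lower, beside 0.241% of all genes higher and 0.895% lower. With limma and library weights, 25 members (33.3%) were called higher and 3 (4.0%) lower, beside 7.29% and 9.41% of all genes. These weights were highest for 15-HETrE 1, vehicle 1 and vehicle 2, the libraries of the first prefix. No member was called with the prefix of the column names as a batch term (0.00689% of all genes higher, 0.0482% lower), without both combined libraries (0.0206% and 1.38%) or without vehicle combined alone (0.0138% and 0.743%).

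The 3 libraries of one group lay all above or all below those of the other for 20 members. In 15 of them (20.0%) the 15-HETrE libraries were higher, where 6.84% of all genes tested were; in 5 (6.67%) they were lower, where 8.32% were. Of the 15, those reported by name are the Kv genes Kcna2, Kcna3, Kcna6, Kcnf1, Kcnh3, Kcnq3 and Kcns1, the K2P genes Kcnk9, Kcnk10 and Kcnk12, the calcium-activated channel genes Kcnma1 and Kcnn2, and the auxiliary subunit gene Kcnab2. The 5 were Kcnh6, Kcns3, Kcnj8, Kcnk5 and Kcne4. The share on the higher side is thus above its background, and the share on the lower side is near it.

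**Figure D1:**
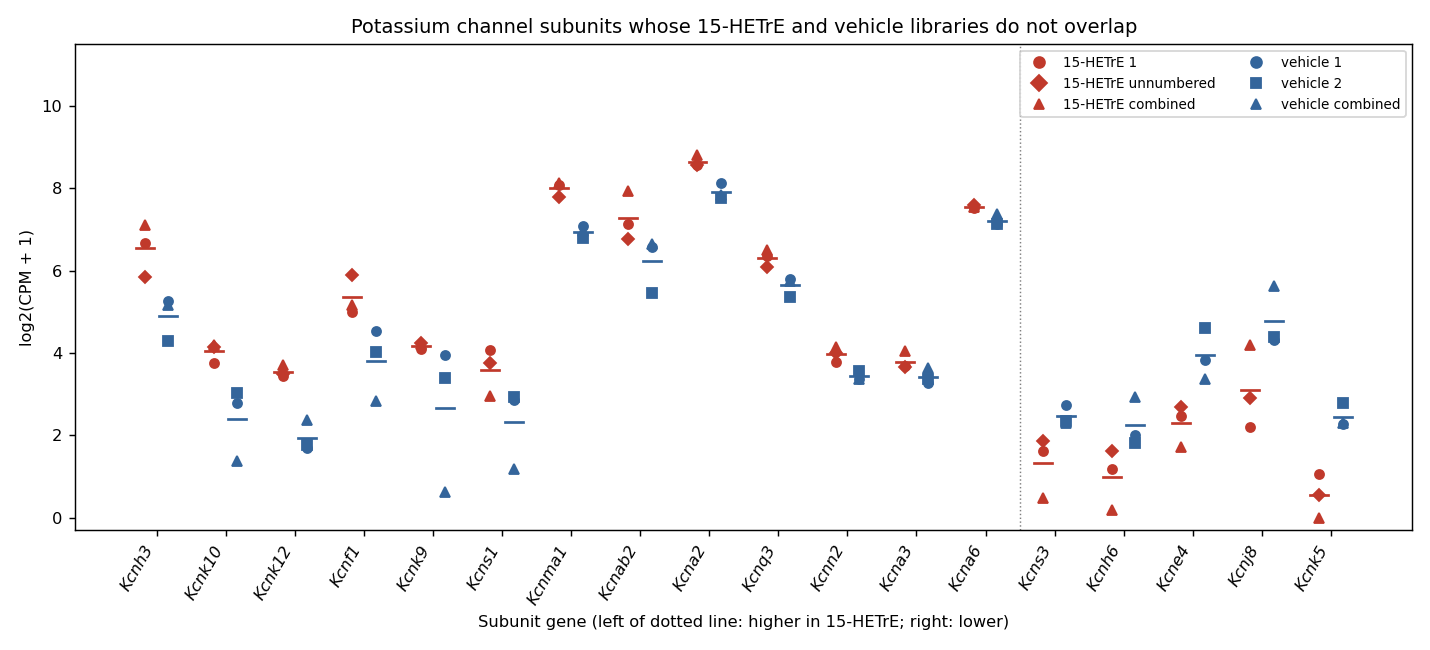
Level of 18 of the 20 members whose groups do not overlap, as log2(CPM + 1), with a symbol per library (15-HETrE left of vehicle for each gene) and a bar at the mean of 3 libraries. The 13 genes left of the dotted line were higher in 15-HETrE and the 5 right of it lower; Kcnma1 and Kcna2 show tight groups, and Kcnk5 and Kcnh6 lie near the bottom of the scale.

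By class, the medians lay between 0.46 and 0.58, and the spread within most classes was wider than that between them. Kv members had a median log2 difference of 0.53 (29 of 36 above 0), Kir 0.54 (9 of 12), K2P 0.46 (6 of 9), calcium-activated 0.54 (7 of 7) and auxiliary 0.58 (8 of 11). Without the 9 electrically silent subunits the Kv median was 0.41 (22 of 27 above 0), lower than that of any class. Within the Kv class the values ran between -1.26 and 1.64, within Kir between -1.67 and 1.19, within K2P between -1.91 and 1.64, and within the auxiliary class between -1.65 and 1.25. Calcium-activated channel genes, the smallest class, had the narrowest range, 0.42 to 1.05, with 0 of 7 below 0. That count depends on the log2(CPM + 1) scale: Kcnn3 averaged 27.3 CPM in 15-HETrE and 27.2 CPM in vehicle libraries, and DESeq2 gave it -0.024. Between the combined libraries of the groups, 5 of 7 were above 0, with Kcnn1 at -0.23 and Kcnn3 at -0.38. A difference between classes was not tested. Taken as a mean over the members in each library, the calcium-activated class stood at 4.75, 4.70 and 4.54 in 15-HETrE 1, unnumbered and combined, against 4.14, 3.98 and 4.14 in vehicle 1, 2 and combined, with no overlap. The Kir class stood at 4.66, 4.52 and 4.54 against 4.39, 4.19 and 4.1497, also apart. The K2P class stood at 3.82, 3.31 and 3.58 against 3.30, 3.16 and 3.12, apart by a small gap. Each of these gaps depends on a single low gene. For Kir it is Kcnj14, with 0.728, 0 and 10.8 CPM in 15-HETrE against 0.0935, 1.48 and 0 CPM in vehicle libraries. For K2P it is Kcnk9, which held 3 reads in vehicle combined. In the Kv class 15-HETrE unnumbered, at 4.55, lay under vehicle 1, at 4.57, and in the auxiliary class 15-HETrE unnumbered and combined, at 4.06 and 3.99, lay under vehicle 1, at 4.27.

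**Figure D2:**
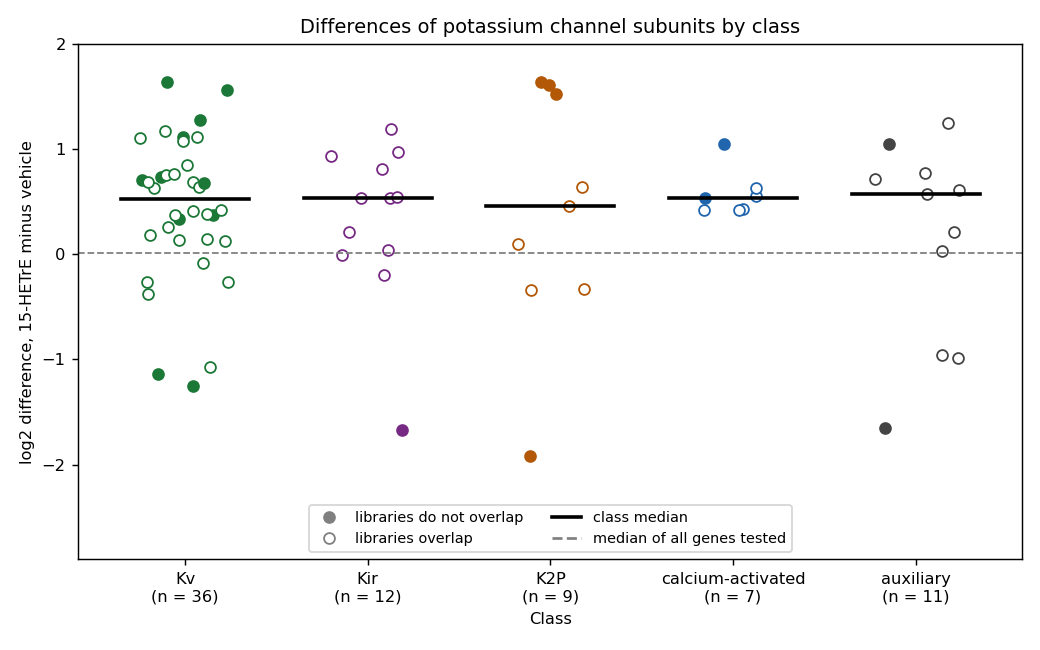
log2 difference, 15-HETrE minus vehicle, of each of the 75 members by class; filled points are members whose groups do not overlap, black bars are class medians and the dashed line is the median of all genes tested. The 5 medians lie between 0.46 and 0.58, and each class except the calcium-activated one, the smallest, has members below 0 on this scale.

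The classes moved beside the pan-neuronal markers, which stood at 7.98, 7.33 and 7.52 in 15-HETrE 1, unnumbered and combined and at 7.37, 6.51 and 6.55 in vehicle 1, 2 and combined. In a measure chosen after seeing the data, the mean of each class was set against the pan-neuronal mean of the same library. All members together differed from the pan-neuronal mean by -3.22, -2.995 and -3.11 log2 units in 15-HETrE 1, unnumbered and combined, against -3.07, -2.56 and -2.45 units in vehicle 1, 2 and combined. So taken, the subunits were lower on average in 15-HETrE libraries, by -0.42 on the log2 scale. The same sign held for the Kv (-0.36), Kir (-0.47), K2P (-0.42), calcium-activated (-0.22) and auxiliary (-0.65) classes. For all members, and for each class except the auxiliary one, the groups overlapped, with vehicle 1 under 15-HETrE unnumbered. The subunits had lower levels than the markers, and the scale of log2(CPM + 1) can distort differences of low genes in either direction. Kcnk5 differed by -1.91 on it and by -3.05 in edgeR, but Kcnk9 by 1.52 on it and 1.05 in edgeR. The share of neuronal RNA in the libraries and its part in the class medians was not tested.

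**Figure D3:**
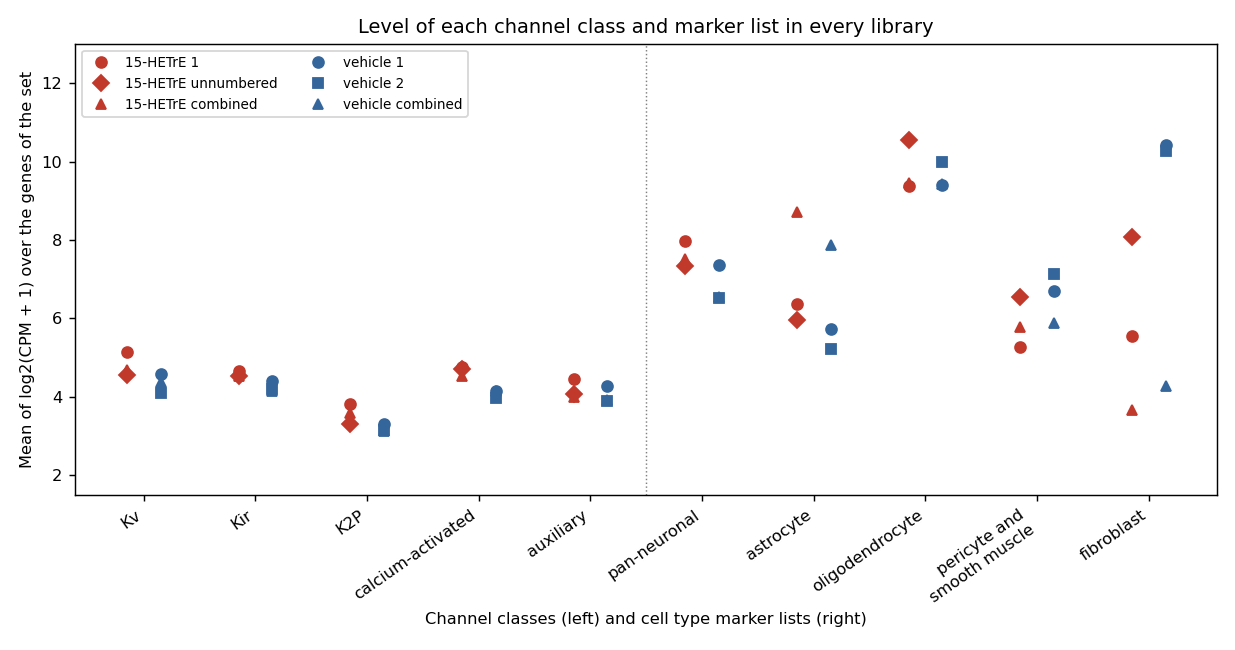
Mean of log2(CPM + 1) over the members of each channel class (left) and over the genes of 5 marker lists (right), with a symbol per library and 15-HETrE left of vehicle. The calcium-activated, Kir and K2P classes separate the groups, the Kir and K2P classes only with the low genes Kcnj14 and Kcnk9 included. Fibroblast markers range between 3.65 and 10.4 and separate libraries more than groups.

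The promoters of 4 members are shown because their groups lay apart in opposite directions: Kcnma1 and Kcna2, higher in 15-HETrE, and Kcnj8 and Kcne4, lower. They were chosen after their values were seen. Each run covers 250 bases before and 50 after the start of the gene (RefSeq, GRCm38.p6), written 5′ to 3′ on the strand of the gene, with the GC box GGGCGG on either strand in capitals.
Kcnma1: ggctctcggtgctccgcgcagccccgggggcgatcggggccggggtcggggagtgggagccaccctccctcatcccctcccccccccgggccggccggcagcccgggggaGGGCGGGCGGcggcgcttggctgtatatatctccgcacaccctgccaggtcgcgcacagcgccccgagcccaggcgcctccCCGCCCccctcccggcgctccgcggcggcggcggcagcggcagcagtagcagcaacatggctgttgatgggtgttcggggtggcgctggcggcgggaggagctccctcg
Kcna2: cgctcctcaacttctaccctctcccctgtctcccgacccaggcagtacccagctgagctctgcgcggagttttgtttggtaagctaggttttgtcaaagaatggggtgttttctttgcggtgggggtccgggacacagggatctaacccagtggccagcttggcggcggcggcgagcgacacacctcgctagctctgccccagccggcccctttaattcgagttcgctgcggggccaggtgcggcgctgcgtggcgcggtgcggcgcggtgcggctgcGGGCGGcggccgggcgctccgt
Kcnj8: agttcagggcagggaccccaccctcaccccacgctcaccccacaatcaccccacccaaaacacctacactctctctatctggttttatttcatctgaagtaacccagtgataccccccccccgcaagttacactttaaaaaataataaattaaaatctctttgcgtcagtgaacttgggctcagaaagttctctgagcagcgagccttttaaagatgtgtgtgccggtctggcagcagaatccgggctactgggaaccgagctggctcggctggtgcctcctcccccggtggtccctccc
Kcne4: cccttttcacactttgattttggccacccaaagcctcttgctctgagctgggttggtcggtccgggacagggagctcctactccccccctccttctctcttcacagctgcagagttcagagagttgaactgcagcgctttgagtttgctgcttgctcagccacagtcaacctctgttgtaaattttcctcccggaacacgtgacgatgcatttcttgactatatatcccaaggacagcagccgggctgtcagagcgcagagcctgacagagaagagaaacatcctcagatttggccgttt
The Kcnma1 promoter lies at chr14:24004156-24004455 on the minus strand, the Kcna2 promoter at chr3:107101317-107101616 on the plus strand, the Kcnj8 promoter at chr6:142571565-142571864 on the minus strand and the Kcne4 promoter at chr1:78816661-78816960 on the plus strand. The RefSeq starts of Kcnma1, Kcna2 and Kcne4 lie inside the spans that GENCODE gives these genes. Of these 4 promoters, those of Kcnma1 and Kcna2 were rich in G and C, 78.0% with 36 CpG and 66.7% with 31 CpG. Those of Kcnj8 and Kcne4 had 53.3% and 52.7% with 9 CpG each, close to the median of 52.7% over 32851 promoters. Base content was not compared by direction over the other members. GC boxes were found at 3 places for Kcnma1, a pair of them overlapping, and at 1 for Kcna2, and none for Kcnj8 or Kcne4; the TATA box TATAAA and the cyclic AMP response element TGACGTCA, on either strand, were in none of the 4 windows. Of the 75 members, 54 had a promoter in this table. Among these, 66.7% held GGGCGG in at least 1 promoter, against 38.2% of all genes, 7.41% held TATAAA, against 15.7%, and 0 held TGACGTCA, against 2.03%. Taken per promoter, the gap was smaller for GGGCGG: 49.4% of the 77 promoters of members held it, against 35.7% of all 32851. For TATAAA the shares per promoter were 5.19% and 13.6%. Over all promoters of the members, the median content of G and C was 65.7% for Kv members, 62.7% for calcium-activated, 57.3% for K2P, 55.2% for Kir and 55.0% for auxiliary members. These matches describe letters in a window and show no binding.

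Levels of different genes were compared per kb of exon (GENCODE M21, GRCm38), since longer transcripts give more reads. Kcna1 was the most abundant member, at 130 CPM per kb in 15-HETrE and 154 CPM per kb in vehicle libraries, followed by Kcnj10 at 122 and 102 CPM per kb. After these came Kcnip3 at 44.4 and 25.6, Kcna6 at 31.3 and 24.8, Kcna2 at 33.6 and 20.2, and Kcnj3 at 29.8 and 19.9 CPM per kb, in 15-HETrE and vehicle in this order. Kcna1 alone held 12.3%, 24.4% and 10.3% of the summed per-kb level of all members in 15-HETrE 1, unnumbered and combined, and 19.7%, 34.6% and 17.7% in vehicle 1, 2 and combined. The Kv class as a whole held 43.0% to 56.5% in 15-HETrE and 45.9% to 59.9% in vehicle libraries, and the calcium-activated class 4.14% to 4.65% and 2.99% to 3.78%. The share of the calcium-activated class was thus higher in every 15-HETrE library than in every vehicle library; the shares of the Kv class overlapped.

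**Figure D4:**
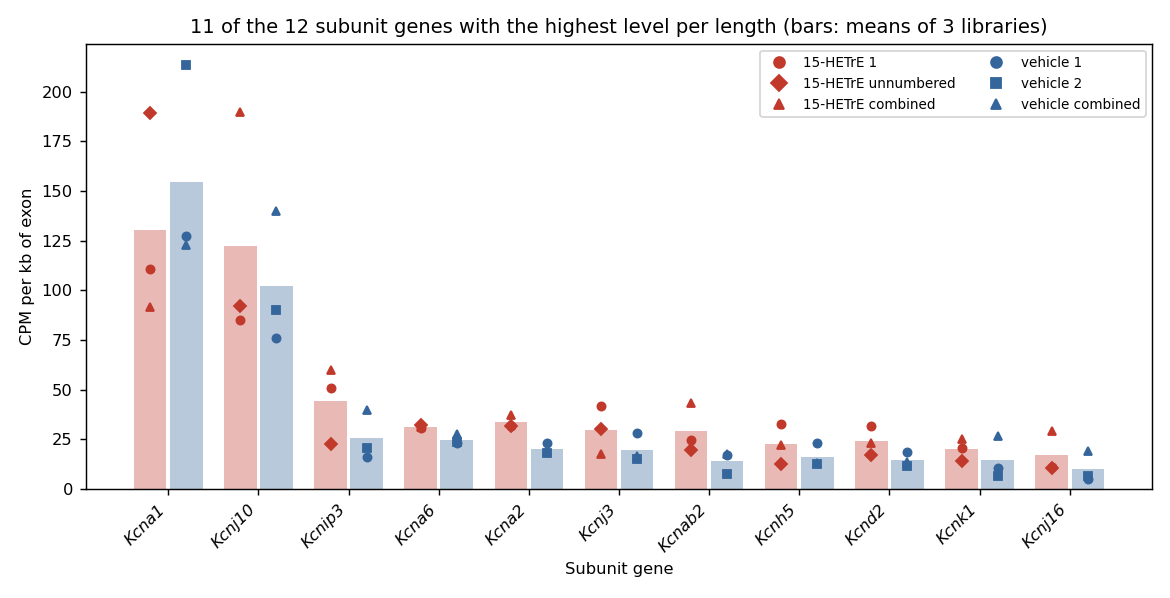
CPM per kb of exon of 11 of the 12 members with the highest level, with bars at the mean of 3 libraries (15-HETrE left of vehicle) and a symbol per library. Kcna1 and Kcnj10 stand above the rest, with means between 102 and 154, and their libraries overlap between the groups.

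Shaker-related Kv genes encode low-threshold channels of the axon. Kcna2 had 379, 376 and 445 CPM in 15-HETrE 1, unnumbered and combined, against 278, 217 and 226 CPM in vehicle 1, 2 and combined (chromosome 3, 107101146 to 107115005, GRCm38). The groups lay apart, and the log2 difference was 0.73 (SE 0.23, adjusted p 0.425, limma), at 0.62 in the first prefix and 0.97 in the combined pair. Kcna1, which forms mixed channels with Kcna2 beside the nodes of Ranvier, had 529, 904 and 439 CPM in the 15-HETrE libraries, against 609, 1019 and 586 CPM in the vehicle libraries, and its groups overlapped, with a difference of -0.27 (SE 0.34, adjusted p 0.826, limma), and -0.57 to -0.0087 with each library left out in turn, the extremes being without 15-HETrE unnumbered and without vehicle 2. Both groups thus had their highest Kcna1 level in a single library, 15-HETrE unnumbered or vehicle 2. The same libraries were the highest of their groups for the oligodendrocyte markers, at 10.5 and 9.99 on the mean log2 scale against 9.37 to 9.46 in the others, and for Cntn2, the axonal and glial adhesion molecule of the same complex, at 477 and 385 CPM; the part of oligodendrocyte RNA in the Kcna1 levels was not tested.

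Kcna6, another member of this family, had 182, 192 and 184 CPM in the 15-HETrE libraries, against 139, 140 and 164 CPM in the vehicle libraries, apart by a small margin, with a difference of 0.34 (SE 0.22, adjusted p 0.651, limma). Its value is uncertain, since 39.6% of its exon length overlaps the antisense gene Gm26673 and the sources used here do not say whether strand was used in counting. Kcna3, a Kv channel also known from lymphocytes and microglia, had 11.9, 11.6 and 15.4 CPM against 8.69, 9.27 and 11.3 CPM, in 15-HETrE and vehicle libraries in this order, and a difference of 0.37. Kcna4 and Kcna5 overlapped between the groups, at 0.41 and -0.37. Kcna1, Kcna5 and Kcna6 are neighbours on chromosome 6 and Kcna2 and Kcna3 on chromosome 3, with gaps of 61.9 to 105 kb, and the first 3 did not share a direction.

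Shab-related channels give the delayed rectifier current of the soma and proximal dendrite. Kcnb2 had 30.7, 14.9 and 31.8 CPM in 15-HETrE 1, unnumbered and combined, against 20.7, 11.2 and 15.8 CPM in vehicle 1, 2 and combined. Its groups overlapped, with a difference of 0.63 (SE 0.45, adjusted p 0.686, limma). Amigo1, a membrane protein that accompanies channels of this family, had 49.9, 35.2 and 43.5 CPM in the 15-HETrE libraries, against 33.9, 20.0 and 27.0 CPM in the vehicle libraries, apart, with a difference of 0.67 (SE 0.34, adjusted p 0.578, limma).

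Shaw-related channels let interneurons fire fast, and Shal-related channels carry the transient A-type current of dendrites. The Shaw-related genes Kcnc1, Kcnc2 and Kcnc4 had differences of 0.38, 0.18 and 0.85, and each overlapped between the groups. Of the 3 Shal-related genes, Kcnd2 had 164, 88.6 and 119 CPM in the 15-HETrE libraries, against 95.9, 59.2 and 71.2 CPM in the vehicle libraries, a difference of 0.69 (SE 0.31, adjusted p 0.520, limma), while Kcnd1 and Kcnd3 differed by 0.14 and 0.15. For Kcnd2 vehicle 1 reached above 15-HETrE unnumbered, and the other libraries did not cross.

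KCNQ channels carry the M current, which muscarinic receptors close and which dampens repetitive firing. Kcnq3 had 80.9, 67.4 and 89.2 CPM in the 15-HETrE libraries, against 54.5, 40.3 and 53.1 CPM in the vehicle libraries. The groups lay apart, with a difference of 0.68 (SE 0.27, adjusted p 0.490, limma), at 0.78 in the first prefix and 0.74 in the combined pair. Kcnq5, which also contributes to this current, had 143, 91.8 and 75.3 CPM in the 15-HETrE libraries, against 90.6, 52.7 and 48.4 CPM in the vehicle libraries. It overlapped between the groups, with a difference of 0.69 (SE 0.34, adjusted p 0.565, limma).

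In the ether-a-go-go family, which holds the ERG and ELK channels, Kcnh3 had one of the highest differences among the members. It had 101, 56.8 and 137 CPM in 15-HETrE 1, unnumbered and combined, against 37.3, 18.7 and 34.7 CPM in vehicle 1, 2 and combined (chromosome 15, 99224861 to 99242817). Kcnh3 encodes an ELK channel of forebrain neurons, and its libraries did not overlap, with a log2 difference of 1.64 (SE 0.40, adjusted p 0.366, limma). DESeq2 gave 1.71 with an adjusted p of 0.0207 and edgeR an adjusted p of 0.468. The difference was 1.90 in the first prefix and 1.95 in the combined pair. Kcnh7 and Kcnh1, an ERG and an EAG channel gene, differed by 1.08 and 1.10 with overlapping libraries. Kcnh6 went the other way, with 1.27, 2.09 and 0.135 CPM in the 15-HETrE libraries, against 3.04, 2.52 and 6.65 CPM in the vehicle libraries, and a difference of -1.26 (SE 0.71, adjusted p 0.613, limma). These values rest on 28, 35 and 1 reads against 65, 56 and 37 reads. Kcnh5, Kcnh4, Kcnh2 and Kcnh8 differed by 0.42, 0.26, -0.26 and -1.07, and each overlapped.

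Electrically silent Kv subunits form no channel alone and modify Shab-related channels when they join them. Kcnf1, one of these modifiers, had 31.1, 58.8 and 35.1 CPM in the 15-HETrE libraries, against 22.3, 15.2 and 6.11 CPM in the vehicle libraries, with a difference of 1.56 (SE 0.50, adjusted p 0.432, limma). Its groups lay apart, though vehicle combined was the lowest by far and rests on 34 reads: the difference was 0.72 in the first prefix and 2.34 in the combined pair. Kcns1 had 15.8, 12.5 and 6.76 CPM against 6.26, 6.57 and 1.26 CPM, a difference of 1.27, where 15-HETrE combined exceeded vehicle 2 by a narrow margin; without vehicle combined the difference was 0.70. Kcns3 was lower, with 2.09, 2.63 and 0.405 CPM in 15-HETrE and 5.66, 4.09 and 3.96 CPM in vehicle libraries, and a difference of -1.14; 15-HETrE combined held 3 reads, and without it the difference was -0.72. Kcnv1, Kcng1, Kcng2, Kcng4, Kcns2 and Kcng3 overlapped between the groups, with differences of 1.12, 1.17, 0.64, 0.75, 0.13 and -0.08.

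Calcium-activated channels close the loop between calcium entry and repolarization. Kcnma1, the pore-forming subunit of the large-conductance (BK) channel, had the smallest p of the members. It had 271, 220 and 276 CPM in 15-HETrE 1, unnumbered and combined, against 134, 109 and 124 CPM in vehicle 1, 2 and combined (chromosome 14, 23289431 to 24014491). The groups stood well apart, at 256 ± 31.3 CPM in 15-HETrE and 122 ± 12.4 CPM in vehicle libraries (SD, n = 3 each), with a log2 difference of 1.05 (SE 0.23, adjusted p 0.334, limma). edgeR gave it an adjusted p of 0.468 and DESeq2 one of 0.0103, with a difference of 1.06. The difference was 1.16 in the first prefix and 1.15 in the combined pair. Kcnma1 is expressed by neurons and also by vascular smooth muscle; pericyte and smooth muscle markers stood at 5.26, 6.55 and 5.77 in the 15-HETrE libraries and at 6.70, 7.14 and 5.89 in the vehicle libraries on the mean log2 scale, with 7 of the 8 listed genes lower in 15-HETrE; their part in the Kcnma1 levels was not tested.

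Small-conductance channels carry the afterhyperpolarization that spaces action potentials. Kcnn2 had 12.7, 14.9 and 16.6 CPM in the 15-HETrE libraries, against 9.35, 10.7 and 9.35 CPM in the vehicle libraries, apart by a small margin, with a difference of 0.54 (SE 0.45, adjusted p 0.725, limma). Kcnn1 and Kcnn3 differed by 0.43 and 0.42 with overlapping libraries, and Kcnn3 had its highest level in the combined library of each group, 50.01 CPM in 15-HETrE and 65.5 CPM in vehicle. Kcnt1 and Kcnt2 encode sodium-activated channels and were grouped here as relatives of the BK channel. Kcnt1 had 62.9, 69.2 and 33.8 CPM against 53.2, 33.3 and 25.5 CPM, and Kcnt2 had 95.0, 35.3 and 68.4 CPM against 51.7, 32.2 and 36.3 CPM, in 15-HETrE and vehicle libraries in this order. Both overlapped, with differences of 0.55 and 0.63. That of Kcnt1 was 0.32 without vehicle combined, 0.36 without 15-HETrE unnumbered, 0.84 without vehicle 1 and 0.87 without 15-HETrE combined, and that of Kcnt2 was 0.32 without 15-HETrE 1 and 1.02 without 15-HETrE unnumbered. Kcnu1, known from sperm, stood at a mean of 2.19 CPM and differed by 0.42.

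Among inward rectifiers, the pores gated by G proteins quiet neurons after transmitter release. Kcnj3 had 217, 157 and 91.4 CPM in the 15-HETrE libraries, against 146, 78.8 and 86.0 CPM in the vehicle libraries, and its groups overlapped, with a difference of 0.55 (SE 0.36, adjusted p 0.655, limma), 0.26 without 15-HETrE 1 and 0.88 without 15-HETrE combined. Of its exon length, 31.1% overlaps Gm26794 on the other strand, so its value is uncertain. Kcnj6 and Kcnj9, its partners, differed by 1.19 and 0.93. For Kcnj6 the 15-HETrE libraries had 73.9, 63.5 and 36.4 CPM and the vehicle libraries 51.7, 24.9 and 10.1 CPM, with 15-HETrE combined inside the vehicle range and the other 15-HETrE libraries above it.

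Kcnj10 and Kcnj16 encode the inward rectifier by which astrocytes, and oligodendrocytes for Kcnj10, take up potassium. Kcnj10 had 461, 499 and 1026 CPM in 15-HETrE 1, unnumbered and combined, against 411, 486 and 757 CPM in vehicle 1, 2 and combined. Its difference was 0.21 (SE 0.36, adjusted p 0.869, limma), and -0.15 without 15-HETrE combined, against 0.47 without vehicle combined. Kcnj16 had 43.6, 40.8 and 115 CPM against 19.7, 24.8 and 74.3 CPM, a difference of 0.81 (SE 0.54, adjusted p 0.658, limma). It was 0.34 without 15-HETrE combined, 0.45 without vehicle 1 and 1.38 without vehicle combined. For both genes the combined library was the highest of its group, and the groups overlapped. The astrocyte markers showed the same order, at 8.71 in 15-HETrE combined and 7.88 in vehicle combined against 5.97 to 6.36 and 5.22 to 5.73 in the other libraries of each group (mean log2 scale), and 7 of the 8 listed were higher in 15-HETrE; the part of astrocyte RNA in these levels was not tested.

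Kcnj8 encodes the pore of the ATP-sensitive channel of pericytes and vascular smooth muscle, and was lower in 15-HETrE libraries. It had 3.64, 6.45 and 17.2 CPM in 15-HETrE 1, unnumbered and combined, against 19.0, 19.8 and 48.2 CPM in vehicle 1, 2 and combined (chromosome 6, 142564837 to 142571614). The groups lay apart, by a small margin between 15-HETrE combined and vehicle 1, with a difference of -1.67 (SE 0.61, adjusted p 0.465, limma), at -2.13 in the first prefix and -1.44 in the combined pair. Abcc9, the sulfonylurea receptor that forms this channel with Kcnj8 and lies 16.2 kb from it, had 19.7, 63.2 and 79.9 CPM in the 15-HETrE libraries, against 99.1, 152 and 194 CPM in the vehicle libraries, a difference of -1.60 (SE 0.48, adjusted p 0.422, limma), at -2.58 and -1.27, and -0.999 without 15-HETrE 1. Both genes were highest in the combined library of each group. The summed level of the pericyte and smooth muscle markers was lower in 15-HETrE as well: 15-HETrE 1 had 490 CPM, 15-HETrE unnumbered 866 CPM and 15-HETrE combined 692 CPM, against 1088, 1344 and 1117 CPM in vehicle 1, 2 and combined, without overlap. As a mean of log2 levels the groups overlapped, with 15-HETrE unnumbered at 6.55 above vehicle combined at 5.89. The part of these cells in the lower levels of Kcnj8 and Abcc9 was not tested. The neuronal counterparts did not share this direction: Kcnj11 and Abcc8 differed by 0.54 and 1.15 with overlapping libraries. The remaining inward rectifiers Kcnj14, Kcnj4, Kcnj12, Kcnj13 and Kcnj2 had overlapping libraries and differences of 0.97, 0.54, 0.04, -0.0043 and -0.195. The value of Kcnj14 rests on 15-HETrE combined: it had 16, 0 and 80 reads in 15-HETrE 1, unnumbered and combined, against 2, 33 and 0 reads in vehicle 1, 2 and combined. Of the Kcnj13 exons, 49.1% of the length lies opposite those of Gigyf2.

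K2P channels pass the leak current that sets the resting potential. Kcnk10, a channel opened by stretch and fatty acids, had 12.6, 16.7 and 17.4 CPM in the 15-HETrE libraries, against 5.84, 7.20 and 1.62 CPM in the vehicle libraries, with a difference of 1.64 (SE 0.60, adjusted p 0.465, limma). Kcnk12, whose protein is mostly silent in expression systems, had 9.83, 10.1 and 12.2 CPM against 2.24, 2.38 and 4.14 CPM, a difference of 1.61 (SE 0.56, adjusted p 0.460, limma). Both genes separated the groups, at low levels; in the first prefix and the combined pair the difference was 0.86 and 2.82 for Kcnk10 and 1.71 and 1.36 for Kcnk12. Kcnk9, an acid-sensitive channel, had 16.1, 17.8 and 17.6 CPM against 14.4, 9.58 and 0.540 CPM, a difference of 1.52 (SE 0.80, adjusted p 0.592, limma). That difference leans on vehicle combined, which held 3 reads of Kcnk9; within the first prefix it was 0.42, and without vehicle combined 0.50.

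Kcnk5, another acid-sensitive K2P channel gene, was lower in 15-HETrE, with 1.09, 0.477 and 0 CPM against 3.88, 5.85 and 3.96 CPM in vehicle libraries. These levels rest on 24, 8 and 0 reads in 15-HETrE and 83, 130 and 22 reads in vehicle libraries, where 3 reads in 15-HETrE combined equal 0.405 CPM. The groups did not overlap, and the difference was -1.91 (SE 0.67, adjusted p 0.460, limma), at -1.47 in the first prefix and -2.31 in the combined pair. The most abundant K2P genes overlapped between the groups. Kcnk1 had 45.6, 31.9 and 56.8 CPM in 15-HETrE and 24.0, 14.5 and 59.2 CPM in vehicle libraries, a difference of 0.64 that was 0.20 without vehicle 2 and 1.18 without vehicle combined. Kcnk2, a relative of Kcnk10, had 46.1, 16.3 and 71.1 CPM against 29.6, 25.1 and 27.3 CPM, a difference of 0.46 that was 0.013 without 15-HETrE combined and 1.04 without 15-HETrE unnumbered. Kcnk13, which microglia use to hold their resting potential, had 19.0, 36.9 and 4.46 CPM against 13.2, 16.4 and 12.8 CPM, a difference of 0.10 that turned to -0.52 without 15-HETrE unnumbered and was 0.87 without 15-HETrE combined. Kcnk3 and Kcnk4 differed by -0.34 and -0.33 and also overlapped.

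Auxiliary subunits of Kv channels include the beta subunits, which bind Shaker-related channels in the cytoplasm. Kcnab2 had 139, 108 and 241 CPM in 15-HETrE 1, unnumbered and combined, against 94.4, 43.0 and 99.1 CPM in vehicle 1, 2 and combined. The groups lay apart, closest at 15-HETrE unnumbered and vehicle combined, with a difference of 1.05 (SE 0.39, adjusted p 0.474, limma), at 1.11 in the first prefix and 1.28 in the combined pair, and 0.66 without vehicle 2. Kcnab3 had 53.4, 52.5 and 33.7 CPM against 41.5, 18.0 and 8.27 CPM, a difference of 1.25 with overlapping libraries, and Kcnab1 had 46.6, 59.4 and 37.7 CPM against 28.8, 40.7 and 56.6 CPM, a difference of 0.21 that was -0.029 without vehicle 1 and 0.45 without vehicle combined.

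The channel-interacting proteins encoded by the Kcnip genes are calcium sensors that bind Shal-related channels. Kcnip3, which also acts as a transcriptional repressor, was the most abundant auxiliary gene, with 180, 79.5 and 213 CPM in the 15-HETrE libraries, against 57.6, 73.9 and 141 CPM in the vehicle libraries. It overlapped between the groups, with a difference of 0.77 (SE 0.42, adjusted p 0.605, limma), 0.4998 without 15-HETrE combined, 0.503 without vehicle 1 and 1.20 without 15-HETrE unnumbered. Kcnip2 and Kcnip4 differed by 0.58 and 0.61, and Kcnip1 by -0.99 (SE 0.53, adjusted p 0.597, limma), or -0.54 without 15-HETrE combined. Kcnip1, the member known from interneurons, had 20.2, 9.85 and 5.001 CPM against 22.3, 19.7 and 21.4 CPM, where 15-HETrE 1 lay within the vehicle range and the other 15-HETrE libraries under it.

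Kcne4, a single-span subunit that inhibits some Kv channels, was lower in 15-HETrE. It had 4.55, 5.43 and 2.30 CPM in the 15-HETrE libraries, against 13.3, 23.5 and 9.35 CPM in the vehicle libraries (chromosome 1, 78816758 to 78820028). The groups did not overlap, and the difference was -1.65 (SE 0.59, adjusted p 0.460, limma), -1.75 in the first prefix and -1.65 in the combined pair. Fibroblast markers stood at 5.56 in 15-HETrE 1, against 10.4 and 10.3 in vehicle 1 and 2, and at 3.65 and 4.28 in the combined pair; their part in the Kcne4 levels was not tested. The other KCNE genes, Kcne1, Kcne2 and Kcne3, did not reach 1 CPM, and Kcne1 and Kcne3 had 0 reads in all libraries. The BK beta subunit genes Kcnmb1, Kcnmb2 and Kcnmb4 were low, at means of 3.44, 1.503 and 1.74 CPM, with overlapping libraries and differences of -0.96, 0.03 and 0.72.

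Partners of these channels without a Kcn symbol, and the HCN channels that oppose them with an inward current at negative potentials, were taken from a list of 20 genes. Of these, 19 reached 1 CPM, 0 passed in limma or edgeR in either direction, 5 were at an unadjusted p under 0.05 in limma (4 higher, 1 lower) and 4 in edgeR. Over all genes, 4.27% were higher and 5.23% lower at that unadjusted p in limma. The median difference was 0.67, with 14 of 19 above 0, where 51% of all genes were. The libraries of 5 genes were higher in 15-HETrE without overlap, Dpp10, Hcn2, Amigo1 and Ank3 among them, and those of 1 lower (Abcc9), where 6.84% and 8.32% of all genes were. Hcn2, an HCN channel gene, had 227, 213 and 200 CPM in 15-HETrE 1, unnumbered and combined, against 154, 176 and 105 CPM in vehicle 1, 2 and combined, a difference of 0.58 (SE 0.26, adjusted p 0.520, limma), and 0.37 without vehicle combined. Dpp10, a partner of Shal-related channels, had 178, 143 and 119 CPM in the 15-HETrE libraries, against 107, 53.6 and 84.2 CPM, a difference of 0.88 (SE 0.31, adjusted p 0.460, limma). Ank3, which anchors KCNQ channels at the axon initial segment, had 893, 1391 and 1030.2 CPM against 609, 634 and 771 CPM, a difference of 0.70 (SE 0.28, adjusted p 0.489, limma).

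Since the prefix of the column names may mark a batch, differences were also taken inside the first prefix and inside the combined pair. These share no library, and the combined pair has no prefix that would place it in a batch. Within the first prefix 64 of 75 members (85.3%) were above 0 with a median of 0.79, against 50.2% of all genes tested. Within the combined pair 47 (62.7%) were above 0 with a median of 0.35, against 52.9% of all genes. In both at once 44 members (58.7%) lay above 0 and 8 (10.7%) below, against 30.9% and 26.3% of all genes. For the members whose groups do not overlap, 15 higher and 5 lower, the sign in both was fixed in advance by that layout. For them only the size of these differences adds to it. By class, the medians within the first prefix were 0.94 for Kv, 0.75 for Kir, 0.74 for K2P, 0.57 for calcium-activated and 0.79 for auxiliary members. Within the combined pair they were 0.40, 0.22, -0.06, 0.39 and 0.02 in the same order, so the K2P and auxiliary medians did not lie above 0.02 there. The second prefix holds a single library and gives no difference. Set against each other across the 75 members, these differences had a Pearson's r of 0.386, against 0.186 over all genes; all points rest on the same libraries, and genes are not independent replicates.

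**Figure D5:**
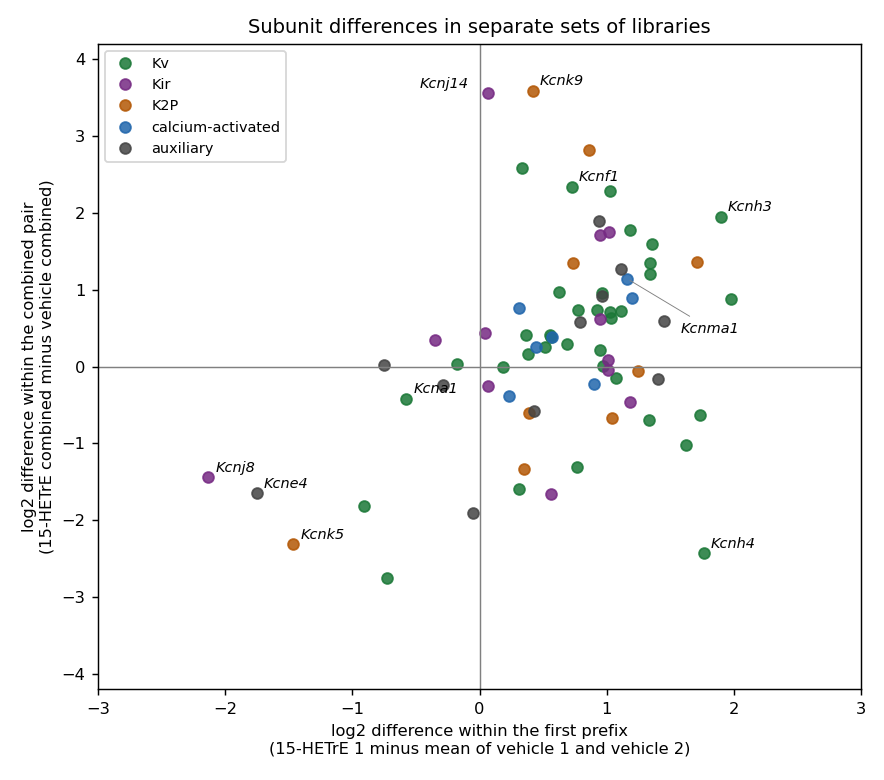
log2 difference of each of the 75 members within the first prefix (horizontal) and inside the combined pair (vertical), coloured by class, with selected genes named. The upper right holds 44 members, Kcnh3 and Kcnma1 among them, and the lower left 8, with Kcnj8, Kcne4 and Kcnk5. The groups of these named genes do not overlap, which fixes their signs here in advance.

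The rule for description by library took 32 members: those without overlap, the 3 with the highest mean in each class and the 5 with the smallest p in each direction; 30 of them are reported here. The other 43 had differences between -1.07 and 1.25, 34 above 0 and 9 below, with a smallest adjusted p of 0.487 (limma).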

How the data were processed

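RNA of 6 libraries was measured by RNA-seq with the Ovation SoLo kit, per the labels' protocols. The submitters' processing notes name mm10 and the tools Trimmomatic, HISAT2, featureCounts and edgeR, while versions, annotation and use of strand were not found in the sources. The deposited values, taken here as a signal, are CPM that carry a factor per library, as the authors' column sums run between 960982 and 1080354. In every column 100% of values were whole multiples of the smallest value above 0 within 1e-04 reads; these recovered reads give the depths and the floor of 3 reads, which covers counting error only. Column names give the group of each library, and numbers for 3 of them.

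The 14523 genes that averaged 1 CPM or more were fitted as log2(CPM + 1), pseudocount 1, with limma 3.58.1 in R 4.3.3, group as the only term and a variance trend, two-sided, and p-values were adjusted over all genes (Benjamini-Hochberg) at a threshold of 0.05. This scale compresses differences of many low genes, though for some it gave larger ones than the fits on recovered reads. edgeR 4.0.16 and DESeq2 1.42.0 on recovered reads, other pseudocounts, filters and scalings, library weights, a prefix term and leaving out libraries were alternatives. Scripts were tested on simulated data. Classes follow gene symbols; positions and exon lengths come from GENCODE M21 on GRCm38 (75 of 75 members matched). Some members and partners are not reported here by name, though counts, sums and medians include them. The members and lists were chosen with earlier results of these data known. Members described by library are those without overlap between groups, the 3 with the highest mean in each class and the 5 with the smallest p in each direction; of the partners, the 4 with the smallest p and those without overlap.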

Additional observations from a re-analysis of the deposited data

How the results depend on the processing

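Over all genes, limma called 0, and the count was 165 with DESeq2, 2425 with library weights, 8 with the prefix as a batch term, which leaves 15-HETrE unnumbered without weight, 204 without both combined libraries, and 0 to 110 when each library was left out in turn, with 110 without vehicle combined. Members called were 2 with DESeq2, 28 with library weights (25 higher, 33.3% against 7.29% of all genes; 3 lower, 4.0% against 9.41%) and 0 in each of the other alternatives; partners called were 6 with library weights. The weights were 3.16, 0.508 and 0.441 for 15-HETrE 1, unnumbered and combined, and 1.82, 3.75 and 0.206 for vehicle 1, 2 and combined. The weighted fit thus leans on the libraries of the first prefix and is not separate from the differences within it. The median of all members was 0.84 with library weights and 0.79 within the first prefix, and 0.35 (without 15-HETrE 1) to 0.62 with each library left out. The Kv median was 0.95 with weights and 0.94 within the first prefix, and 0.38 to 0.73 with each library left out. The Kir median was 0.43 with a pseudocount of 5, 0.75 within the first prefix, 0.22 within the combined pair and 0.34 (without 15-HETrE 1; 0.35 without vehicle 2) to 0.48 with each library left out. The K2P median was 0.66 with weights, 0.68 with the prefix term, 0.74 within the first prefix, -0.059 within the combined pair and 0.20 (without vehicle 2) to 0.86 (without 15-HETrE unnumbered). The calcium-activated median was 0.41 with a pseudocount of 5, 0.39 within the combined pair and 0.41 to 0.75 with each library left out. The auxiliary median was 0.31 with a pseudocount of 5, 0.94 with weights, 0.016 within the combined pair and 0.21 (without vehicle 2; 0.32 without 15-HETrE 1) to 0.59. The partners' median was 0.35 (without vehicle combined) to 0.74. Under other scalings the median of all genes moved by at most 0.0253. Of 757 values of single genes under alternatives, 6 reversed: Kcnab1 to -0.000201 with the prefix term and -0.029 without vehicle 1, Kcnj10 to -0.15 without 15-HETrE combined, and Kcnk13 to -0.37 with the prefix term, -0.06 without 15-HETrE 1 and -0.52 without 15-HETrE unnumbered. With each library left out, these reached up to 0.45, 0.47 and 0.87. The cause was not tested. No paired analysis was possible because the columns of the groups share fewer than 2 replicate numbers. Depth limits the lowest members: in the combined libraries 1 read is worth 0.135 and 0.180 CPM, and 8 members had 0 reads in at least 1 library.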
